A study of Homo sapiens with 14 samples.

Results

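IMR32 and IMR5-75 are both established human neuroblastoma cell lines, and they are 2 of the 14 lines sequenced in this series, with 1 RNA library each. They were chosen by name as a pair because IMR5-75 is known as a subclone grown out from the IMR32 line, and both are known as lines with an amplified MYCN gene. The descent and the amplification are textbook knowledge and are not in the labels, which give only the line name and the tumour type. The study's title names damage to telomeres, tumour immunogenicity and anti-PD-L1 treatment, and the 14 cultures are untreated as far as the labels say. Medium was RPMI1640 or DMEM containing 10% FBS, with no antibiotics and negative mycoplasma tests, and which of the 2 media a line had is not given. RNA came from TRIzol extraction and went into TruSeq libraries. The other 12 lines served as the background of spread.

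Neuroblastoma arises from sympathoadrenal precursors of the neural crest, and its cells keep a regulatory circuit of HAND2 and GATA factors together with parts of the machinery that makes catecholamines and neuropeptides. MYCN, a transcription factor on the short arm of chromosome 2, is amplified in many aggressive tumours, often with its neighbours DDX1 and NBAS. A subclone starts from a small number of cells of its parent line and is then cultured apart, so parent and subclone share an origin but not their later history.

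IMR32 had 38158169 counts and IMR5-75 had 40315707, within the 35856642 to 58644013 of all 14 libraries, over 20049 gene symbols. Levels are CPM, the usual library-size unit of RNA-seq, after scaling with TMM factors, and every ratio is IMR5-75 over IMR32 on the log2 CPM scale unless a fold is given with the line that was higher. With 1 library a line there is no replicate check and no p-value. Intervals are 95% exact binomial intervals of a ratio of counts and cover counting error only. The mitochondrial share of counts was 4.64% in IMR32 and 11.7% in IMR5-75, the highest of the 14.

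Both lines had high levels of several genes around MYCN on chromosome 2, with MYCN itself lower in the subclone. MYCN (chr2:15940564-15947007, GRCh38, plus strand, protein coding) stood at 1442 CPM in IMR32 and 598 CPM in IMR5-75, 2.41-fold higher in IMR32 (interval 2.38 to 2.45). Among the other 12 lines it ran from 0.384 CPM to 2245 CPM with a median of 38.7, so both lines lay in the upper part of that range. Of the 66 pairs among those 12 lines, 56 differed in MYCN by as much or more. DDX1 (chr2:15591178-15631111), an RNA helicase gene close to MYCN, was at 7796 CPM in IMR32 and 6558 CPM in IMR5-75, and its log2 ratio was -0.25. SK-N-DZ had 9754 CPM of DDX1, and the remaining 11 lines lay far below the pair. NBAS (chr2:15166909-15561330, minus strand), which takes part in transport between Golgi and endoplasmic reticulum, was at 2282 CPM in IMR32 and 3225 CPM in IMR5-75, against at most 568 CPM (SK-N-DZ) in the others. FAM84A (chr2:14632686-14650814) was at 2101 and 2557 CPM, and the highest of the other 12, NGP, had 83.2 CPM. MYCN thus differed past 2-fold between the lines, and DDX1, NBAS and FAM84A stayed within 2-fold. FAM49A (chr2:16549459-16666331), on the other side of MYCN, was past 2-fold in the opposite direction, at 1.55 CPM in IMR32 and 5.98 CPM in IMR5-75.

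Farther along the same chromosome the pair stood above all 12 other lines in MEIS1 and ANTXR1, but not in ALK. MEIS1 (chr2:66433452-66573869), a homeobox partner of HOX and PBX proteins, was at 252 CPM in IMR32 and 476 CPM in IMR5-75, against at most 116 CPM elsewhere. ANTXR1 (chr2:69013178-69249327), a cell-surface receptor that binds collagen, was at 1153 and 1144 CPM, against at most 595 CPM (SK-N-SH). ALK (chr2:29192774-29921566), a receptor tyrosine kinase mutated in some neuroblastomas, was at 167 CPM in IMR32 and 38.7 CPM in IMR5-75, a ratio of -2.11, and 38 of the 66 other pairs differed by as much. Of the 10 counted members of the list of MYCN and other genes of chromosome 2p, which reaches as far as MEIS1 and ANTXR1, 1 was past 2-fold higher in IMR5-75 (FAM49A) and 3 were past 2-fold higher in IMR32 (ALK, ODC1 and MYCN). Over all counted genes 17.2% were past 2-fold higher in IMR5-75 and 14.6% in IMR32. Copy number was not measured here.

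PYY, which encodes the gut and neural peptide YY, marked IMR5-75 alone. It was at 1.30 CPM in IMR32 and 112 CPM in IMR5-75, 86.1-fold higher in the subclone (interval 65.6 to 115), and the highest of the other 12 lines had 2.18 CPM. None of the 66 other pairs differed as much.

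**Figure D1:**
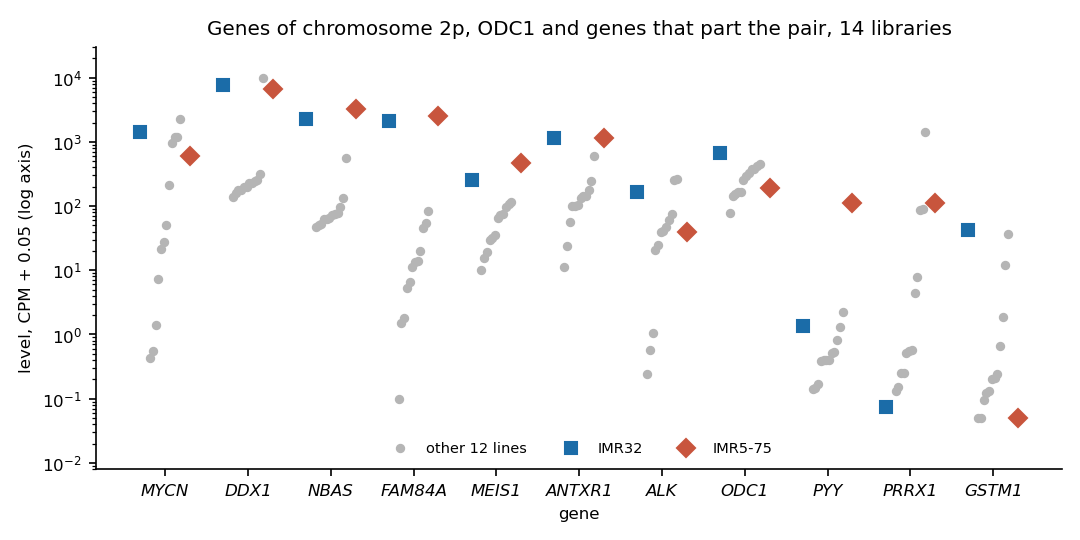
Levels of 11 genes in the 14 libraries, as CPM plus 0.05 on a log axis; blue squares are IMR32, red diamonds IMR5-75 and grey points the other 12 lines. NBAS, FAM84A, MEIS1 and ANTXR1 lie above every grey point in both lines, MYCN lies at 1442 CPM in IMR32 and 598 CPM in IMR5-75, and PYY stands apart only in IMR5-75 at 112 CPM.

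The neuroblast identity of both cultures was checked on its markers. HAND2, a factor of sympathetic neuron development, was at 542 CPM in IMR32 and 477 CPM in IMR5-75. GATA3 was at 189 and 246 CPM, and ELAVL4, a neuronal RNA-binding protein gene, at 268 and 227 CPM. Each of these 3 stayed within 2-fold. Of all 10 neuroblast markers 4 were past 2-fold higher in IMR32 (TH, CHGA, CHGB and STMN2) and 1 in IMR5-75 (DBH). Leukocyte markers summed to 5.79 CPM in IMR32 and 12.1 CPM in IMR5-75 (5.30 to 488 in the others), with 4 and 3 of the 10 at 0 counts. Endothelial markers summed to 4.12 and 9.46 CPM over 7 genes and Schwann cell markers to 5.09 and 11.9 CPM over 8 genes, with SOX10, the defining factor of that lineage, at 0.349 and 0.377 CPM. Fibroblast markers summed to 94.0 and 135 CPM (95.3 to 15170 in the others). All 4 sums were higher in IMR5-75, and their part in the differences below was not tested.

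How far apart the lines lay was set beside every other pair of libraries. Of the 15179 genes at 1 CPM or more in either line, 2606 were past 2-fold higher in IMR5-75 (17.2%) and 2211 past 2-fold higher in IMR32 (14.6%), which leaves 10362 within 2-fold. Past 4-fold there were 1025 and 813, and past 16-fold 257 and 259. The median ratio over all counted genes was -0.01. The pair therefore differed past 2-fold in 31.73% of genes. Among the 66 pairs of the other 12 lines this share ran from 25.37% to 63.25% with a median of 38.22%. Of the 66 pairs 13 differed less than IMR32 and IMR5-75 did. All 13 were among the 45 pairs that hold neither Lan-6 nor GI-ME-N. SK-N-SH with SH-SY5Y, likewise known as a parent line and its subclone, differed in 37.13% of genes. IMR32 with IMR5-75 ranked 19 of 91 from the closest. SH-SY5Y lay closest to IMR32, with 27.21% of genes past 2-fold, and 4 lines in all were closer to IMR32 than IMR5-75 was. NGP, another line with high MYCN, lay closest to IMR5-75 at 30.44% and was the 1 line closer to it than IMR32. These pairs share libraries, so their order is a description. For the gene lists in this report, the shares of 17.2% and 14.6% over all counted genes are the background of each count past 2-fold.

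**Figure D2:**
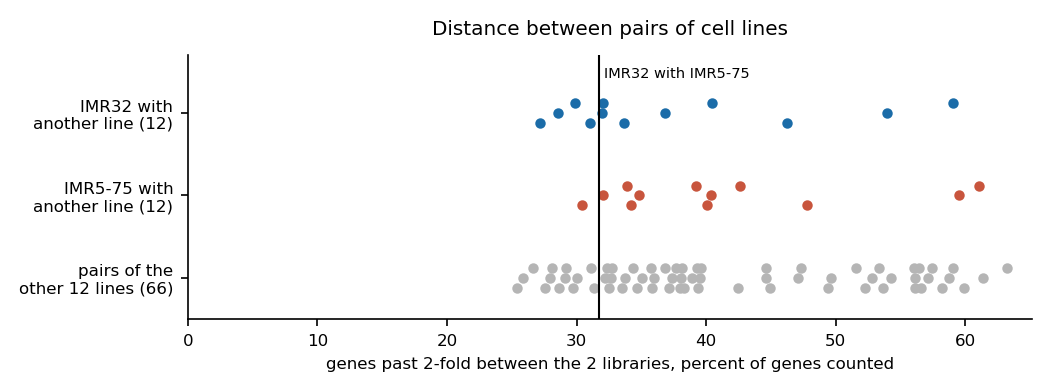
Share of counted genes past 2-fold (percent) for pairs of libraries: IMR32 with each other line, IMR5-75 with each other line, and the 66 pairs of the other 12 lines; the vertical line is IMR32 with IMR5-75 at 31.73%. Of the 66 grey points 13 lie to its left.

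For most genes past 2-fold the difference had equals among other lines: over the 4817 such genes, the median number of other pairs with a difference as large was 18 of 66. For 383 genes no other pair differed as much, 183 of them higher in IMR5-75 and 200 higher in IMR32.

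Some genes were present in one line and all but absent from the other. Among genes at 5 CPM or more in one line and at 3 counts or fewer in the other, 38 were present in IMR5-75 and 22 in IMR32. PRRX1, a homeobox factor of mesenchymal cells, had 1 count in IMR32 and 5043 counts (112 CPM) in IMR5-75, a ratio of 4480-fold with a counting interval of 803 to 177000. SK-N-SH (1413 CPM) had more PRRX1 than IMR5-75, and the median of the other 12 was 0.517 CPM. HOXD13, a homeobox gene of posterior identity, had 2 counts in IMR32 and 1613 in IMR5-75 (35.7 CPM), and its highest other level was 20.8 CPM in NGP. SALL1, a zinc-finger factor of kidney and limb development, had 0 counts in IMR32 and 493 in IMR5-75, which is at least 146-fold higher against a limit of 3 counts per library. GATA4, a GATA factor of heart and endoderm, had 2 and 452 counts. CDKN2B, an inhibitor of CDK4 and CDK6, had 1 and 584 counts. Its neighbour CDKN2A, which encodes p16 and ARF, was at 0.250 CPM in IMR32 and 33.9 CPM in IMR5-75 (136-fold, interval 73.7 to 284), within the 0.0678 to 95.5 CPM of the other lines.

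Several of the 38 genes are of neuronal or signalling type. NPY1R, a receptor for neuropeptide Y and peptide YY, had 3 counts in IMR32 and 319 in IMR5-75 (7.07 CPM), while no other line passed 0.378 CPM. NPY5R, another receptor of that family and too low to be among the 38, had 0 counts in IMR32 and was at 1.35 CPM in IMR5-75, at least 18.1-fold higher, and at most 0.0228 CPM elsewhere. CHRND, a subunit of the muscle nicotinic receptor, had 2 and 365 counts, and CHRNA1, the alpha subunit of the same receptor, which with 8 counts in IMR32 is not among the 38, was at 0.200 and 49.6 CPM (248-fold, interval 126 to 576) against at most 3.66 CPM elsewhere. For 10 of the 38 genes, among them HOXD13, HOXD11, CHRND, POU4F2 and PPP1R17, the highest of the other 12 lines was NGP. For 4 of them (DACH2, DMRTA1, NPY1R and RGS7BP) every other line was under 1 CPM.

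Among the 22 genes present in IMR32, GSTM1, a glutathione transferase gene known to be deleted in many people, had 1692 counts (42.2 CPM) in IMR32 and 0 in IMR5-75, at least 635-fold higher in the parent. No other pair differed as much, although NGP and SK-N-FI were also at 0 CPM. EFS, an adaptor protein gene, had 1138 and 0 counts. TMEM185B had 891 and 0 counts, PGAP3, which remodels GPI anchors, 612 and 2, and ZNF256 421 and 0. These last 3, with ZNF112 and ZNF177, were at 1 CPM or more in all 12 other lines, so that IMR5-75 was the library without them. PRRX2, the paralogue of PRRX1, ran against it, with 327 counts in IMR32 and 0 in IMR5-75.

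Some genes with more counts parted the lines as widely. MAB21L2, a developmental gene of eye and body wall, was at 455 CPM in IMR32 and 0.554 CPM in IMR5-75 (821-fold, interval 556 to 1270). SMARCA2, an ATPase of the SWI/SNF remodelling complex, was at 48.7 and 0.111 CPM, and no other pair of lines differed as much. CHD5, a chromatin remodeller on 1p36, was at 131 and 5.07 CPM. H2AFX, the histone variant that is phosphorylated at DNA breaks, was at 94.5 and 4.99 CPM, a ratio of -4.23 with a fold interval of 16.6 to 21.8, and the lowest of the other 12 lines had 33.9 CPM. In the other direction GAGE1, a cancer-testis antigen gene of a near-identical family on chromosome X, was at 0.125 and 56.1 CPM, and PRAME, an antigen of many tumours, at 13.1 and 529 CPM (40.3-fold, interval 36.9 to 44.0). The remaining 10 of the 12 measured cancer-testis genes were under 1 CPM in both lines.

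**Figure D3:**
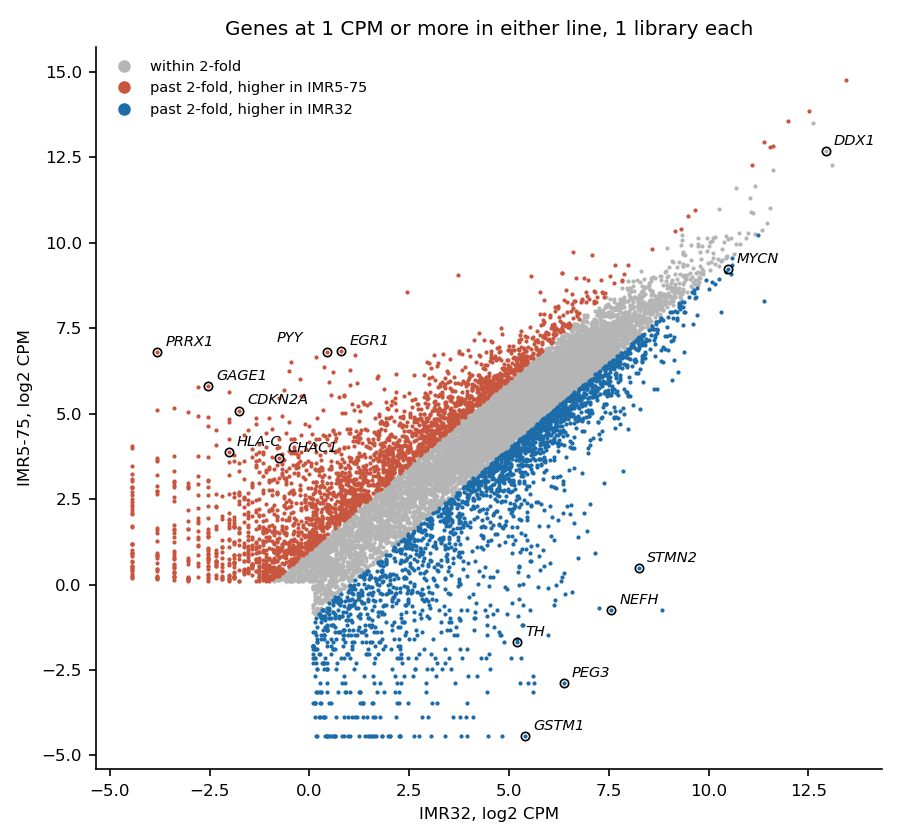
Log2 CPM of the genes at 1 CPM or more in either line, IMR32 on the x axis and IMR5-75 on the y axis, 1 library each; red and blue points are past 2-fold and circled genes are named. Most points lie in the grey band within 2-fold, while PRRX1 and PYY lie high at the left and GSTM1, PEG3, NEFH and STMN2 low at the right.

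The MYC-responsive list lay on 1 side. All 15 counted members were lower in IMR5-75, 6 of them past 2-fold, with a median ratio of -0.59. ODC1, the rate-limiting enzyme of polyamine synthesis and a textbook MYC target, was at 659 CPM in IMR32, above all 12 other lines (76.8 to 452), and at 193 CPM in IMR5-75, 3.41-fold higher in the parent. NCL, the nucleolar protein nucleolin, was at 1386 and 569 CPM, DKC1, the pseudouridine synthase dyskerin, at 192 and 87.7 CPM, and PTMA, prothymosin alpha, at 1532 and 758 CPM. NPM1, LDHA and FBL stayed within 2-fold. In the MAX network MAX itself was at 53.8 and 61.6 CPM, and MXD3 (39.4 and 15.1 CPM) and MXD1 (29.9 and 12.1 CPM), partners that oppose MYC, were past 2-fold higher in IMR32. MYCL, a further MYC paralogue, was at 0.524 CPM in IMR32 and 15.9 CPM in IMR5-75 (30.3-fold, interval 19.7 to 49.2), and MLXIPL, a glucose-responsive relative, at 1.95 and 21.5 CPM, above all others. MYC had 3 and 5 counts.

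MYC proteins bind with MAX to the E-box, so the promoters of this list were searched for it in RefSeq windows from 250 bases before to 50 after each gene's start (GRCh38.p14). The motif searched was CACGTG, which reads the same on both strands. It was present in 5 of the 17 windows of 13 list members found in the table (29.4%), in 9.13% of the 16379 windows of counted genes and in 7.26% of all 35093 windows. In ODC1, LDHA and SRM it lies before the start, and in FBL and NME1 after it, where ODC1 has a further match that is not in the stretch shown. Their stretches are shown 5′ to 3′ on the gene's strand with CACGTG in capitals: ODC1 (chr2:10448013-10448101, minus), LDHA (chr11:18394318-18394541, plus) and SRM (chr1:11060152-11060268, minus), with ratios of -1.77, -0.33 and -0.59.
ODC1: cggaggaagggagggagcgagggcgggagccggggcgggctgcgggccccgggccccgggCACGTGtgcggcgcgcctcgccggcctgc
LDHA: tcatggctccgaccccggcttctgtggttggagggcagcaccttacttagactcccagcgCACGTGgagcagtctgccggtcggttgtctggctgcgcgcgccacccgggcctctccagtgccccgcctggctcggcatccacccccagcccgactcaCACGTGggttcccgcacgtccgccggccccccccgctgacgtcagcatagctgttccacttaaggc
SRM: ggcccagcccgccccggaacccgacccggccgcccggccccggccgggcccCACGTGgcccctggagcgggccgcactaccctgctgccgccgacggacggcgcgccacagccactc
Over all genes past 2-fold the motif was no more frequent in either direction, at 7.80% of windows for genes higher in IMR5-75 and 7.73% for genes higher in IMR32. The list was picked for genes known to respond to MYC, so its share of matches describes the list and not this pair of lines. A match describes the letters of the window and not binding.

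Proliferation genes lay lower in the subclone. All 12 were below 0, 6 of them past 2-fold, with a median of -1.13. CDK1, the mitotic kinase, was at 212 CPM in IMR32, above the 48.6 to 178 of the others, and at 61.1 CPM in IMR5-75. PCNA, the sliding clamp of DNA replication, was at 292 and 92.6 CPM, below all 12 other lines (136 to 425) in the subclone, and no other pair differed as much. MKI67 was at 588 and 213 CPM and TOP2A at 679 and 253 CPM. Of 13 counted genes of cell cycle control, 8 were past 2-fold higher in IMR32 and 2, CDKN2A and CDKN2B, past 2-fold higher in IMR5-75. CCND1, a G1 cyclin, was at 1272 and 253 CPM, and CDKN2C, a further CDK inhibitor, at 232 and 10.0 CPM. CDKN1B was at 136 and 32.7 CPM and CDKN1A at 306 and 127 CPM, while CDK6 was at 382 and 385 CPM and CCNE1, another G1 cyclin, at 13.8 and 11.9 CPM. The state of growth of either culture at harvest is not given.

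Of 14 counted adrenergic transcription factors 11 stayed within 2-fold, and ISL1 (69.3 and 17.9 CPM), GATA2 (85.5 and 25.8 CPM) and TLX2 (249 and 83.3 CPM) were past 2-fold higher in IMR32, near the share of 14.6% over all counted genes. Some products of the neuroendocrine programme differed more. TH, the rate-limiting enzyme of catecholamine synthesis, was at 36.6 CPM in IMR32 and 0.266 CPM in IMR5-75 (138-fold, interval 78.5 to 267), although 29 of the 66 other pairs differed as much. DDC, the next enzyme, was at 21.8 and 2.19 CPM. DBH, which makes noradrenaline, ran the other way at 5.64 and 29.8 CPM, and so did MAOA, which breaks it down, at 21.4 and 53.5 CPM.

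All 15 counted granin and neuropeptide genes were past 2-fold, 11 higher in IMR32 and 4 higher in IMR5-75, with a median of -1.86. Galanin (GAL) was at 313 and 35.2 CPM, the granin SCG2 at 219 and 25.8 CPM, CHGA at 251 and 111 CPM, CHGB at 192 and 49.2 CPM, and ADCYAP1, which encodes PACAP, at 55.3 and 5.07 CPM. The 4 higher in IMR5-75 were PYY, NTS, CALCB and PCSK2, a convertase of prohormones, and all but PYY were under 6 CPM there. Among 17 receptors 7 were past 2-fold higher in IMR32, beside 14.6% of all counted genes, with CHRNA3, a ganglionic nicotinic subunit, at 775 and 197 CPM. In IMR5-75 3 were higher (NPY1R, NPY5R and VIPR2), near the 17.2% of all counted genes.

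Neuronal structural genes leaned to the parent, with members on both sides. Of 20, 16 were below 0, with a median of -0.47. Past 2-fold, 7 were higher in IMR32, beside 14.6% of all counted genes. In IMR5-75 3 were higher (NEFL, NEFM and CNTNAP2), near the 17.2% of all counted genes. STMN2, a regulator of microtubules in growth cones, was at 305 CPM in IMR32 and 1.35 CPM in IMR5-75 (225-fold, interval 175 to 295). The heavy neurofilament NEFH was at 189 and 0.554 CPM (340-fold, interval 230 to 526), above all other lines in the parent, whereas the medium and light subunits NEFM (100.7 and 313.3 CPM) and NEFL (92.9 and 194 CPM) were past 2-fold higher in the subclone. INA, alpha-internexin, which joins these subunits in neurofilaments, was past 2-fold higher in the parent at 403 and 104 CPM, so neurofilament genes lay on both sides. Peripherin (PRPH) was at 214 and 29.5 CPM and GAP43 at 60.7 and 10.1 CPM. SYP, SYT1, UCHL1 and ELAVL4 were within 2-fold.

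Growth factor receptors were among the groups with more members higher in the subclone. Of 20 receptor tyrosine kinase genes, ligands and partners, 9 were past 2-fold higher in IMR5-75 and 4 in IMR32, with a median of 0.84. Over all counted genes the shares were 17.2% and 14.6%. NGFR, the low-affinity neurotrophin receptor, was at 1.27 CPM in IMR32 and 20.5 CPM in IMR5-75 (16.1-fold, interval 12.2 to 21.8). The ligands BDNF and GDNF were at 3.64 and 25.9 CPM and at 0.150 and 4.87 CPM. IGF1R was at 44.4 CPM in IMR32, below all 12 other lines (71.9 to 498), and at 122 CPM in IMR5-75. NTRK3, the receptor of neurotrophin 3, was the other way at 55.8 and 12.8 CPM, as were ALK (above), ERBB2 and KITLG. The list of MAPK feedback genes holds 13, among them ETV1, ETV4, ETV5 and NF1 beside the DUSP, SPRY and SPRED genes. Past 2-fold, 1 was higher in IMR5-75 (SPRY1) and 4 in IMR32 (DUSP4, DUSP6, SPRY4 and ETV4), beside 17.2% and 14.6% of all counted genes. DUSP6, an ERK phosphatase, was at 4.72 and 1.95 CPM. DKK1, a secreted WNT inhibitor, had 304 counts in IMR32 and 4 in IMR5-75, while the lowest of the other 12 lines had 1.18 CPM. CYP26A1, which degrades retinoic acid, had 1 count in IMR32 and was at 1.09 CPM in IMR5-75 and at most 0.0807 CPM elsewhere.

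Mesenchymal markers likewise went both ways, 5 of 14 higher in IMR5-75 and 4 in IMR32. Over all counted genes the shares were 17.2% and 14.6%, which also stand beside the collagen and Notch counts below. PRRX1, NOTCH3 (2.12 and 34.8 CPM), FN1 (19.1 and 105 CPM), YAP1 (3.49 and 16.3 CPM) and MAML2 were past 2-fold higher in the subclone. PRRX2, TNC (33.8 and 1.86 CPM), SNAI2 and TWIST1 were past 2-fold higher in the parent, and TWIST1, at 91.1 and 10.1 CPM, was below all 12 other lines in IMR5-75. VIM was at 148 and 238 CPM, against up to 10610 CPM in the others. Of 16 collagen and matrix genes 6 were higher in IMR5-75, among them COL3A1 (4.07 and 37.99 CPM) and COL6A1 (71.6 and 280 CPM), and 4 in IMR32, among them COL5A1 (235 and 31.8 CPM). In the Notch list 5 of 10 were past 2-fold higher in IMR5-75 and 0 in IMR32: the ligand DLL1 was at 1.77 and 45.7 CPM, above all 12 others in the subclone, and NOTCH1 at 14.1 and 49.9 CPM.

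**Figure D4:**
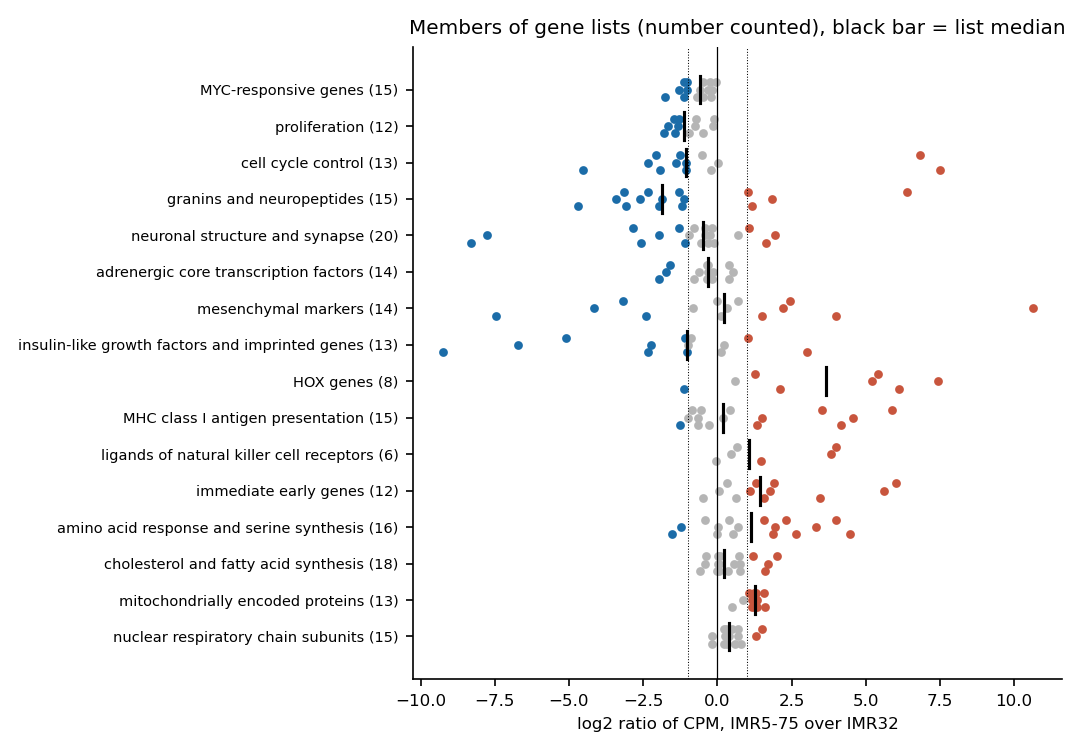
Log2 ratio of CPM, IMR5-75 over IMR32, for the counted members of 16 gene lists, with the number counted beside the name; red and blue points are past 2-fold, and the black bar is the median of the list. The MYC-responsive (median -0.59) and proliferation (-1.13) lists lie wholly to the left of 0, and the mitochondrially encoded genes (median 1.27) wholly to the right.

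HOX genes give the position of a cell along the body axis. HOXC6 was at 0.0749 CPM in IMR32 and 4.45 CPM in IMR5-75 (59.5-fold, interval 20.1 to 291), and the other 12 lines ran from 1.475 to 25.01 CPM, so the parent was the library without it. HOXC4 was at 1.87 and 8.18 CPM, and HOXC8 had 0 counts in IMR32 against 3.19 CPM. All 6 HOXC genes measured were past 2-fold higher in IMR5-75, as were 6 of 8 HOXD genes, while HOXD3 was past 2-fold higher in IMR32 at 16.5 and 7.53 CPM. HOXD10 was at 0.125 and 29.8 CPM. No gene of the HOXA or HOXB clusters reached 1 CPM in either line. The count over whole clusters was made after the values of single members were seen.

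Imprinted genes, which are expressed from 1 parental allele, included some of the widest differences. PEG3, a zinc-finger gene expressed from the paternal allele, was at 82.7 CPM in IMR32 and 0.0886 CPM in IMR5-75 (933-fold, interval 364 to 3420), and ZIM2, which shares its start region, had 0 counts in IMR5-75 against 1.52 CPM. SNRPN, a paternally expressed splicing protein gene on chromosome 15 that overlaps SNURF, was at 70.4 and 0.620 CPM (114-fold, interval 78.4 to 171), and the other 12 lines ran from 54.4 to 156 CPM, so no other line came near the subclone. IGF2 was at 6.51 and 1.35 CPM and CDKN1C at 29.5 and 13.8 CPM. GRB10, an adaptor of insulin receptors, was the other way at 7.96 and 65.6 CPM. The list holds them together with insulin-like growth factor genes, some of which are not imprinted, such as IGFBP5 (32.5 and 6.45 CPM). Of its 13 counted members 7 were past 2-fold higher in IMR32 and 2 in IMR5-75, with a median of -1.03.

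Class I heavy chain genes, whose products show peptides to T cells, were at low levels in both lines and higher in IMR5-75. HLA-C was at 0.200 CPM in IMR32 and 14.6 CPM in IMR5-75 (73.2-fold, interval 37.0 to 170). HLA-B was at 0.225 and 6.36 CPM and HLA-E at 0.275 and 5.72 CPM. With HLA-F and TAP2, a peptide transporter subunit, among them, 6 of 15 counted genes of the class I list were past 2-fold higher in IMR5-75. B2M, the light chain that every class I molecule needs, was at 167 and 84.7 CPM, 1.97-fold higher in IMR32, and PDIA3, a chaperone of the loading complex, at 417 and 174 CPM. Heavy chains and light chain thus differed in direction. TAP1 and the immunoproteasome genes PSMB8 and PSMB9 were under 1 CPM in both lines. HLA genes are highly similar to each other, and the authors' counting could split their reads.

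Ligands of the natural killer cell receptor NKG2D were likewise higher in the subclone. ULBP1 was at 2.50 CPM in IMR32 and 40.2 CPM in IMR5-75 (16.1-fold, interval 13.2 to 19.9), ULBP2 at 0.749 and 11.3 CPM, and ULBP3 at 1.62 and 4.56 CPM, and each was above all 12 other lines in the subclone. MICA, a further ligand, was at 1.40 and 1.35 CPM. Of 11 counted interferon-stimulated genes 7 stayed within 2-fold. Past 2-fold, 3 were higher in IMR5-75 (USP18, IRF7 and IFI6) and 1 in IMR32 (IFI44), beside 17.2% and 14.6% of all counted genes. USP18, which restrains interferon signalling, was at 0.824 and 20.7 CPM, and IFI44 at 15.7 and 0.111 CPM. The median was 0.01, with 6 genes above 0 and 5 below, so the list as a whole had no common direction. A further 10 genes of the list were under 1 CPM in both lines. Nucleic acid sensing genes also went both ways. Of 8 counted, 2 were past 2-fold higher in IMR5-75 (MAVS and IRF3) and 3 in IMR32 (IFI16, TREX1 and EIF2AK2). Those counts stand beside the same 17.2% and 14.6%, and the median was -0.1. MAVS, the mitochondrial adaptor, was at 89.7 and 197 CPM and above all others in the subclone. CD274, which encodes PD-L1, had 33 counts (0.824 CPM) in IMR32 and 3 counts in IMR5-75, against up to 95.04 CPM elsewhere. CD276, a relative of PD-L1, was at 139 and 66.02 CPM.

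For telomere maintenance, TERT, which encodes telomerase's reverse transcriptase, was at 4.82 CPM in IMR32 and 7.33 CPM in IMR5-75, 1.52-fold higher in the subclone (interval 1.27 to 1.83), and 56 of 66 other pairs differed by more or as much. Of 9 telomerase genes 2 were past 2-fold higher in IMR32, DKC1 (above) and NOP10 (61.8 and 22.8 CPM), beside 14.6% of all counted genes. In IMR5-75 both lay below all 12 other lines. All 6 shelterin genes stayed within 2-fold. ATRX was at 102 and 120 CPM and DAXX at 93.2 and 46.6 CPM.

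Immediate early genes lay mostly higher in IMR5-75. Of 12 counted immediate early genes, which respond to serum and stress within minutes, 8 were past 2-fold higher in the subclone and 0 in the parent, with a median of 1.42. EGR1 was at 1.70 CPM in IMR32, below all 12 other lines (3.70 to 610), and at 114 CPM in IMR5-75 (67.1-fold, interval 52.9 to 86.6). FOS was at 0.574 CPM, likewise below all others, and 30.7 CPM. JUN, the partner of FOS, was within 2-fold at 166 and 120 CPM. The extreme library was therefore IMR32 for both EGR1 and FOS. The handling of the cultures before lysis is not given, and its part was not tested.

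The amino acid response, run by the factor ATF4, had 8 of 16 genes past 2-fold higher in IMR5-75 and 2 (VLDLR and SLC7A5) higher in IMR32, with a median of 1.14. CHAC1, which breaks down glutathione, was at 0.549 and 13.1 CPM (23.8-fold, interval 15.6 to 38.3). DDIT3, the stress factor CHOP, was at 4.17 and 41.7 CPM, SLC7A11, the cystine carrier, at 4.42 and 71.2 CPM, and ASNS, asparagine synthetase, at 83.4 and 324 CPM (3.88-fold, interval 3.74 to 4.03). PHGDH, the first enzyme of serine synthesis, was at 57.7 and 213 CPM. ATF4 itself was within 2-fold at 180 and 294 CPM, and TRIB3, another of its targets, was at 26.9 CPM in both. IMR32 was below all 12 other lines in CHAC1, DDIT3 and SLC7A11, so for these genes too the parent was the extreme library. In ATF4 it was hardly apart from SH-SY5Y (181 CPM) and SK-N-SH (184 CPM).

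ATF4 binds an element that joins parts of C/EBP and ATF sites, and the letters TGATGNAA were searched on both strands, a motif chosen after the values were seen. It lay in 3 of 21 windows of 13 list members, in 2.09% of the windows of counted genes and in 3.62% of all windows. The 2 stretches in which it lies wholly before the start are shown with the match in capitals, ASNS (chr7:97872409-97872536, minus strand) and CHAC1 (chr15:40953221-40953329, plus strand, match on the opposite strand). The third window with a match was that of SLC3A2, which was at 123 and 124 CPM. The list was picked for genes of this response, so its share of matches describes the list and not this pair of lines.
ASNS: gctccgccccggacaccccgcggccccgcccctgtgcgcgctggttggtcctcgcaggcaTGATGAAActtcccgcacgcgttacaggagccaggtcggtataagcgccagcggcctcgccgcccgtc
CHAC1: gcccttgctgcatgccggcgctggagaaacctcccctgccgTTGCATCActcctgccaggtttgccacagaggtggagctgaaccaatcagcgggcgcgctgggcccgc

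Of metabolic genes, those encoded on the mitochondrial genome stood out together. All 13 were higher in IMR5-75, 11 past 2-fold, with a median of 1.27, beside the larger mitochondrial share of that library. MT-CO1 was at 11180 and 27980 CPM. Among 15 nuclear genes for respiratory chain subunits the median was 0.38, and 13 stayed within 2-fold. The 2 past 2-fold higher in IMR5-75 were SDHB (21.1 and 60.3 CPM) and COX6C (40.3 and 98.5 CPM), a share no larger than the 17.2% of all counted genes. Of 18 genes of lipid synthesis 4 were past 2-fold higher in the subclone, a share near the 17.2% of all counted genes, and 0 in the parent: SREBF1, which drives fatty acid synthesis, at 31.7 and 127 CPM, FDFT1 at 203 and 657 CPM, FDPS at 158 and 480 CPM, and LSS at 197 and 455 CPM, each above all 12 others in IMR5-75. Of 11 counted genes of heat shock and protein folding stress, the latter including HSPA5, XBP1 and HERPUD1, 9 were below 0, with a median of -0.88. Past 2-fold, 2 were higher in IMR32, a share near the 14.6% of all counted genes, and 0 in the subclone. HSPH1, at 452 and 117 CPM, had the lowest ratio of that list.

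Neighbouring genes often differed together. In windows of 25 neighbouring genes at 5 CPM or more, 14.6% of 11798 windows had a median ratio past 0.5 in either direction. In the 66 other pairs this share ran from 8.80% to 73.2% with a median of 27.24%. The lowest share, 8.80%, was that of SK-N-SH with SH-SY5Y, likewise known as a parent line and its subclone. Among the 66, that pair and LS with NGP (14.28%) were the 2 with fewer such windows than IMR32 with IMR5-75. Outside the 66, IMR32 with SH-SY5Y also had fewer, at 14.43%, so a share this low was not particular to parent and subclone. By chromosome the median was 0.42 on chromosome 1 (1269 genes, 366 higher in IMR5-75 and 83 in IMR32), -0.59 on chromosome 15 (443 genes, 30 and 149), -0.29 on chromosome 11 and -0.25 on chromosome 19. The remaining autosomes and X lay between -0.19 and 0.04.

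Several long runs of windows lie on these chromosomes. A run joins windows with medians past 0.5 in 1 direction that overlap or adjoin, and windows within 0.5 may lie between them. The medians and shares of a run therefore follow in part from that selection. On chromosome 1 one run held 208 genes (chr1:1335276-28233025, median 0.73), one 86 genes (chr1:42380795-52366193, 0.93) and one 264 genes (chr1:116514535-169854080, 0.69). Chromosome 15 had a run of 345 genes from chr15:20379495-82262763 with a median of -0.66 and 79.7% of genes on the lower side. On the long arm of chromosome 11, 140 genes (chr11:96352769-134411918) had a median of -1.11, 123 of them lower in IMR5-75, and H2AFX and CADM1, an adhesion molecule at 128 and 32.6 CPM, lie there. The way windows were joined into runs was chosen after the profile was seen, and whether these runs follow gains or losses of DNA was not tested.

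**Figure D5:**
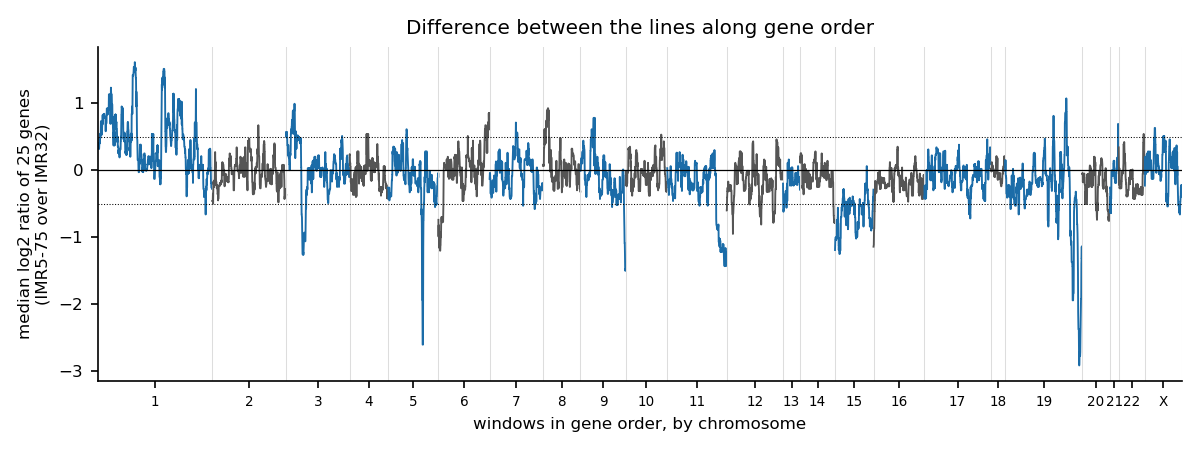
Median log2 ratio, IMR5-75 over IMR32, of windows of 25 neighbouring genes in gene order along chromosomes 1 to 22 and X; dotted lines mark 0.5 and -0.5. Chromosome 1 lies above 0 over long stretches (median 0.42), chromosome 15 and the end of 11 below, and the lowest points are windows on chromosomes 19 (-2.91) and 5 (-2.60).

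The highest window, chr1:45002540-46616891, had a median of 1.61, and 24 of its 25 genes were above 0. It holds PRDX1, a peroxide-removing enzyme, at 88.3 and 309 CPM, UROD of haem synthesis at 22.6 and 73.3 CPM, MUTYH, a DNA repair glycosylase, at 13.0 and 37.9 CPM, and UQCRH of the respiratory chain at 88.2 and 255 CPM. FAAH was the exception at 8.51 and 2.13 CPM. The next window, chr1:145096000-147993521, had a median of 1.51 with BCL9, a coactivator of WNT signalling, at 57.5 and 195.2 CPM and CHD1L, a remodelling enzyme, at 68.0 and 194 CPM. The NBPF and GPR89 genes in it are near-identical copies, and their split is uncertain. The third, chr1:18871430-21937297, had a median of 1.23 with the ubiquitin ligase UBR4 at 184 and 526 CPM.

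The lowest window, chr19:56595264-57819939, had a median of -2.91, and all 25 of its genes were lower in IMR5-75, 23 of them past 2-fold. For 16 of the 25 no other pair of lines differed as much. It holds PEG3 and a cluster of KRAB zinc-finger genes, repressors that often silence transposable elements, among them ZIK1 (36.6 and 0.288 CPM, 127-fold), ZNF551 (27.8 and 0.310 CPM) and ZNF772 (30.7 and 0.864 CPM). A further window of this family, chr19:52269571-53392217, had a median of -1.94, with ZNF528 at 91.8 and 4.12 CPM and ZNF677 at 46.8 and 1.57 CPM. Over all 244 counted genes with a ZNF symbol on chromosome 19 the median was -0.82, with 110 past 2-fold higher in IMR32 and 11 in IMR5-75. On other chromosomes 249 ZNF genes had a median of -0.07 (30 and 23), and the 838 counted chromosome 19 genes outside the family had a median of -0.07 (123 and 164). The median was thus lower for ZNF genes on chromosome 19 than for either of the other groups. These counts were chosen after the window was seen, and sequence likeness among ZNF genes makes single values uncertain.

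The second lowest window, chr5:140698680-141682221, had a median of -2.60 and holds the clustered protocadherins, adhesion proteins that give neurons individual surface codes. Of 22 counted PCDHG genes 21 were past 2-fold higher in IMR32 and 0 in IMR5-75, and their summed level was 111 CPM against 11.1 CPM, where the other 12 lines ran from 109 to 424. Of 15 PCDHB genes 13 were past 2-fold higher in IMR32. PCDHB15 alone in that cluster was past 2-fold higher in IMR5-75, at 0.649 and 76.8 CPM (118-fold), and no other pair differed as much. The summed PCDHB level was 102 and 85.4 CPM, and in the subclone PCDHB15 made up 76.8 CPM of it. Of the other genes in the window, TAF7, between the PCDHB and PCDHG clusters, was at 168 and 112 CPM, and HDAC3, beyond the last PCDHG gene, at 59.0 and 64.0 CPM. ARAP3, a GTPase-activating protein gene at the end of the window, was at 37.8 and 0.953 CPM, 39.7-fold higher in IMR32, and 25 of the 66 other pairs differed as much.

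What the lines share against all others was taken from genes within 1.5-fold of each other on the log2 CPM scale. In 163 genes both lines lay above all 12 others, 11 of them by more than 2-fold. The same count for the other 90 pairs had a median of 85.5 and a maximum of 1076, and the pair ranked 9 of 91. Both lines lay below all others in 145 genes, 8 of them by more than 2-fold. For the other 90 pairs this count had a median of 67.5 and a maximum of 454, and the pair ranked 10 of 91. IMR5-75 with NGP had higher counts, 190 above and 297 below, so sharing of this size was not particular to parent and subclone. PAX1, a paired-box factor of the sclerotome, was at 9.93 CPM in IMR32 and 10.5 CPM in IMR5-75 and at most 0.115 CPM elsewhere, a gap of 62.0-fold. DPEP2, a dipeptidase, was at 5.86 and 5.43 CPM against at most 0.186, PTCHD1, a Patched-like membrane protein, at 114 and 94.3 CPM against at most 49.0, and SLC38A5, an amino acid carrier, at 37.0 and 39.7 CPM against at most 15.6.

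On the low side GPR108 had 2 and 3 counts while every other line had at least 15.6 CPM, and CDYL, a chromodomain corepressor, had 2 and 4 counts against at least 6.27 CPM. TIGAR, which lowers glycolysis, had 3 counts in each line against at least 3.36 CPM. HGF, the ligand of MET, had 6 and 8 counts against at least 2.41 CPM. SMN1 was above all others (42.8 and 40.0 CPM) and its near-identical copy SMN2 below all others (25.7 and 24.2 CPM), and reads of these copies can hardly be told apart. At such low counts a difference between parent and subclone in GPR108, CDYL, TIGAR or HGF was not detectable.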

How the data were processed

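RNA of 14 cell lines was sequenced, 1 library each. The authors deposited a table of estimated counts per gene symbol. That these are counts rests on the values, since kallisto 0.44.0, DESeq2 1.48.2 and GRCh38 are named in the submitters' processing notes with no role. Which annotation was counted on is not given in the sources used here. Log2 values, which the authors deposited too, served only as an alternative scale.

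Counts were scaled with TMM factors over the 14 libraries and put on a log2 CPM scale with a prior count of 2 (edgeR 4.0.16, R 4.3.3). The scripts used Python 3.11.15, pandas 2.3.3 and SciPy 1.17.1. Genes at 1 CPM or more in either line were counted, and 2-fold was the line for a difference. With 1 library a line, no test was made. Where a gene had 0 counts its upper limit was set at 3 counts (0.0749 CPM for IMR32, 0.0665 CPM for IMR5-75). Positions come from GENCODE release 29 (98.8% of symbols had 1 place), and promoters from RefSeq GRCh38.p14.

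Named genes were list members, the 25 largest differences each way among genes at 5 CPM or more in the higher line, genes at 5 CPM or more in one line and 3 counts or fewer in the other, the 15 widest gaps above and 10 below the other 12 lines, and genes of the 3 highest and 3 lowest windows. The pair, the lists and these rules were chosen with earlier results of these data known. Alternatives covered scaling, the prior count, low-value filters, the fold, the deposited scale, a trend on GC content and length, and window size. The scripts were tested on simulated data. Some genes are not reported here.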

Additional observations from a re-analysis of the deposited data

How the results depend on the processing

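The number of genes past the line depended most on the fold chosen. At 1.5-fold 4003 genes were higher in IMR5-75 and 3889 in IMR32, and at 4-fold 1025 and 813. Scaling by library totals alone gave 2834 and 1943, so that 59.3% of the differing genes were higher in IMR5-75 against 54.1%, with a shift of 0.09 in the median of all genes. On the deposited log2 values the counts were 1910 and 1818. No named gene or list median past 2-fold changed sign under any alternative run. Of 419 named genes past 2-fold, 385 stayed past it on the deposited scale, the fewest of the alternatives run. Single-gene values moved more often, beyond their counting interval in 839 of 5219 values over the alternatives, 457 of 748 on the deposited scale and 274 of 748 with library totals alone. Of 430 list medians 13 moved by more than 1.5 times. No paired analysis was possible because each line has 1 library. Differences between these libraries cannot be told apart from differences between cultures of 1 line.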
